A study of Rattus norvegicus with 14 samples.

Results

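The genes described here lay lower in phenylephrine-stimulated rat heart muscle cells at 48 h than in unstimulated cells. With JQ1 present they lay higher than without it. They were chosen by measured values. For each gene the brightest probe set with a single gene symbol was taken, and its log2 expression was averaged over the arrays of a group. A gene was kept when DMSO with PE at 48 h lay at least 0.4 below DMSO at 90 min and JQ1 with PE at 48 h lay at least 0.4 above DMSO with PE at 48 h. It also had to have a JQ1 difference at 6 h above -0.3 and a group mean of at least 7. Of 13184 genes, 8672 reached that level, 725 of them also met the PE condition, 240 of those met the JQ1 condition at 48 h, and 216 met all conditions. The members were thus 29.8% of the 725 genes lowered with PE, and 509 lowered genes were not members. Near the PE threshold, Chmp1b (-0.4001) and Scand1 (-0.4016) lay just inside, and Polr2a (-0.3998) and Ncoa7 (-0.399) just outside. Near the JQ1 threshold, Snx33 (0.4026) and Rilpl1 (0.4033) lay just inside, and Rev1 (0.3998) and Tbx18 (0.3997) just outside.

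Neonatal rat ventricular myocytes, primary cells of Sprague-Dawley rat pups aged 2 days, were profiled on 14 Affymetrix arrays. JQ1 with PE was present for 6 h on 3 arrays and for 48 h on 3 arrays, DMSO with PE for 6 h on 2 arrays and for 48 h on 3 arrays, and DMSO without PE for 90 min on 3 arrays. PE was given at 100 µM, and all cells had been plated so as to deplete non-myocytes and then kept in serum-free medium. By the labels' treatment protocol, the times with PE followed 6 h in JQ1 or DMSO alone. The sample annotation used here gives 6 h for the DMSO 90 min arrays too, although this is not stated for them separately. No source used here gives the JQ1 concentration, and the labels and the design text disagree on whether JQ1 or PE was added first. No PE-free arrays at 6 h or 48 h were analysed here, and PE therefore cannot be told apart from time in culture. No JQ1 arrays without PE were analysed here either, so a return of the level with JQ1 cannot be told apart from a rise that JQ1 would give without PE. The DMSO with PE 48 h arrays enter both differences of the rule with opposite sign. Whether arrays of 1 group stem from different cultures is not stated in the labels, so p-values cover only array-to-array spread, possibly technical.

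Phenylephrine acts on alpha1-adrenergic receptors, and cultured myocytes respond to it by growing without dividing. Growth signalling through Akt is known to keep FOXO transcription factors out of the nucleus, and FOXO factors are known to switch on genes of growth arrest, autophagy and protein breakdown. Heart muscle that hypertrophies is also known to lower genes of fatty acid oxidation. BET proteins read acetylated histones and help RNA polymerase II leave its paused state, and JQ1 displaces them from chromatin. JQ1 is best known for lowering genes, while the genes described here are ones that lay higher with it.

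The 2 differences that chose the members are descriptions with no test. The PE difference at 48 h had a median of -0.56 and reached -2.52, and 20 members lay at least 2-fold lower. The JQ1 difference at 48 h had a median of 0.76 and reached 2.45, and 60 members lay at least 2-fold higher. All 3 JQ1 with PE arrays lay above all 3 DMSO with PE arrays at 48 h in 216 of 216 members, and all DMSO with PE arrays at 48 h lay below all DMSO 90 min arrays in 216 of 216. Over all genes, limma (adjusted p under 0.05) called 30.0% higher with JQ1 at 48 h and 22.6% lower with PE at 48 h, and 33.2% and 27.4% had arrays that did not overlap in these directions. The rule sets the members' separation, and nothing is read from it. The SE of such a difference was 0.0604 at the median over all genes.

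**Figure D1:**
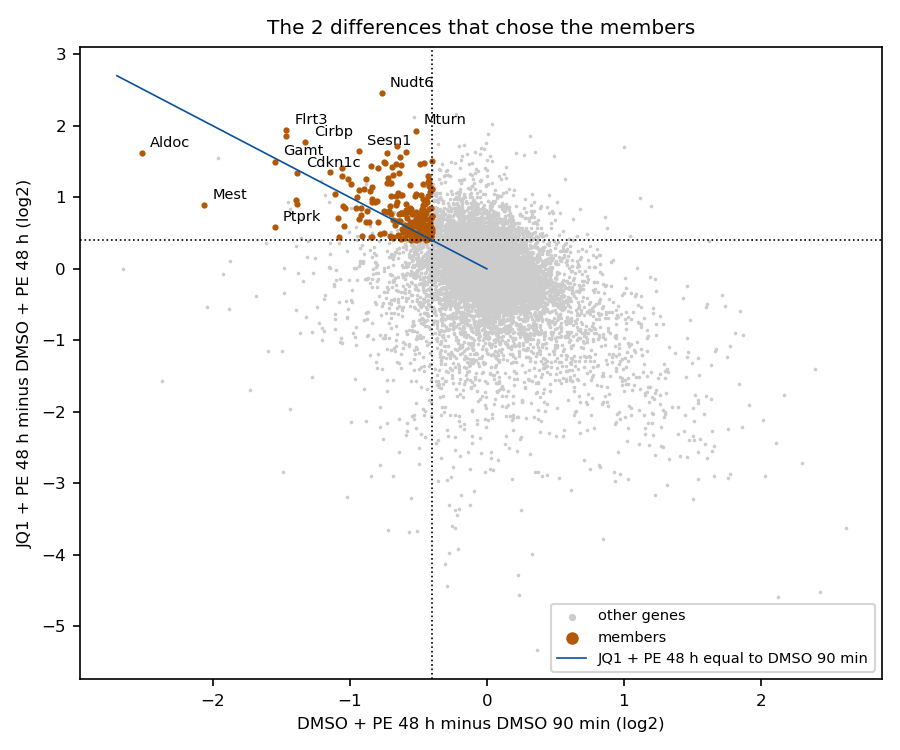
Each point is 1 of 13184 genes, with the PE difference at 48 h on the x axis and the JQ1 difference at 48 h on the y axis, both log2. The 216 members (brown) fill the upper left corner beyond the dotted thresholds of -0.4 and 0.4, and points above the blue line lay higher in JQ1 with PE at 48 h than in DMSO at 90 min.

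The early PE response, DMSO with PE at 6 h against DMSO at 90 min, was not a condition of the rule, though both its groups entered the rule. It shares the 3 DMSO 90 min arrays with the PE difference of the rule, and the 2 DMSO with PE 6 h arrays entered the rule through the bound on the JQ1 difference at 6 h. Array spread that raises the former or lowers the latter favours both selection and a fall at 6 h. The members' 6 h calls and p-values are thus not independent of the selection, and the size of this bias was not tested. At 6 h, 181 of the 216 members (83.8%) had fallen, 7 (3.24%) had risen and 28 were not called (limma, Benjamini-Hochberg adjusted p under 0.05 over 13184 genes). Among all genes 18.9% fell and 18.3% rose. Among the 509 other genes lowered at 48 h, 373 (73.3%) had fallen and 12 (2.36%) had risen, and the difference between both sets was not tested. The members' median change at 6 h was -0.40, against -0.37 in the other lowered genes and 0.01 over all genes. In 145 members (67.1%) the fall at 6 h was at least 50% of that at 48 h on the log2 scale, in 65 it was at least as large as at 48 h, and in 35 (16.2%) it was under 25%. Of the 509 other lowered genes, 59.9% had a fall at 6 h of at least 50% of that at 48 h, and 22.4% one under 25%. The second DMSO with PE 6 h array lay above the first in 186 members, by 0.11 at the median. Without the first of these arrays 155 members had fallen and 9 had risen, and without the second 183 had fallen and 4 had risen.

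**Figure D2:**
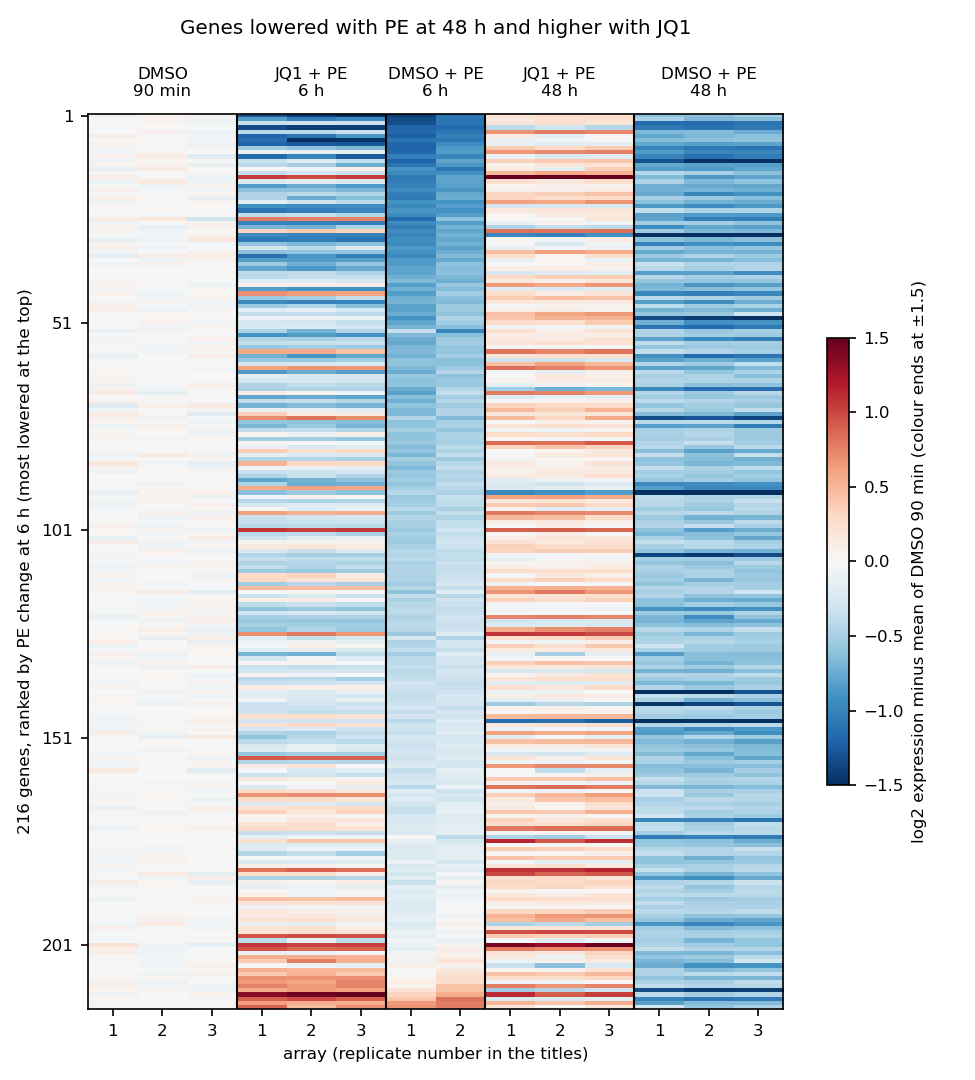
Rows are the 216 members, ranked by the PE change at 6 h with the most lowered at the top, and columns are the 14 arrays in their groups. Colour gives log2 expression minus the mean of DMSO at 90 min. The DMSO with PE columns are blue at 48 h in all rows by the rule, the DMSO with PE columns at 6 h are blue in most rows and red in the lowest ones, and the JQ1 with PE columns at 48 h are near white or red in most rows.

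JQ1 differences at 6 h, of which the rule used only the lower bound, were mixed. The median was 0.21, and 157 members (72.7%) lay above 0. The difference was at least 0.4 in 69 members, within 0.2 of 0 in 93 and below -0.2 in 14. All 3 JQ1 with PE arrays lay above both DMSO with PE arrays in 128 members, below both in 33, and overlapped them in 55. Over all genes, 31.7% had the JQ1 arrays above both and 34.3% had them below both. Limma called 25.5% of all genes higher and 28.8% lower with JQ1 at 6 h. The JQ1 difference was larger at 48 h than at 6 h in 203 of 216 members and in 50.9% of all genes, and since the rule asked for at least 0.4 at 48 h and only for above -0.3 at 6 h, nothing is read from this count. Most members lay below the unstimulated level at 6 h with JQ1 too: JQ1 with PE at 6 h minus DMSO at 90 min had a median of -0.22, and 143 members were below 0.

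**Figure D3:**
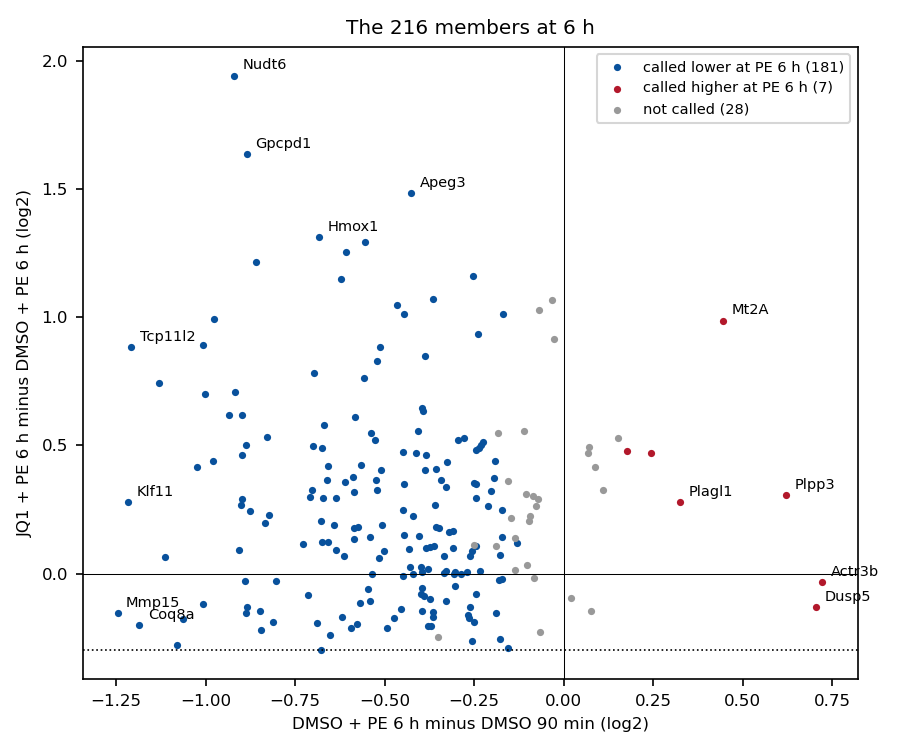
Each point is 1 of the 216 members, with the PE change at 6 h on the x axis and the JQ1 difference at 6 h on the y axis, both log2. Of them 181 were called lower with PE (blue), 7 higher (red) and 28 neither (grey), and the dotted line is the lower bound of the rule at -0.3.

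At 48 h with JQ1 155 members lay at or above the mean unstimulated level. JQ1 with PE at 48 h minus DMSO at 90 min, which is the sum of the 2 differences of the rule, had a median of 0.15. Both differences were bounded by the selection, so this median is a description and nothing is read from it. The sum was at least 0 in 155 members (71.8%), within 0.2 of 0 in 107, above 0.2 in 90 and below -0.2 in 19. All JQ1 with PE 48 h arrays lay above all DMSO 90 min arrays in 123 members, below them in 29, and overlapped them in 64. Over all genes, 35.0% had all these JQ1 arrays above and 30.9% had them all below. Centring each array on its median would move the median of all genes for this difference to 0.144 as against 0.033 as deposited, and for the JQ1 difference at 48 h to 0.129 as against 0.017, so values near 0 depend on the scaling.

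**Figure D4:**
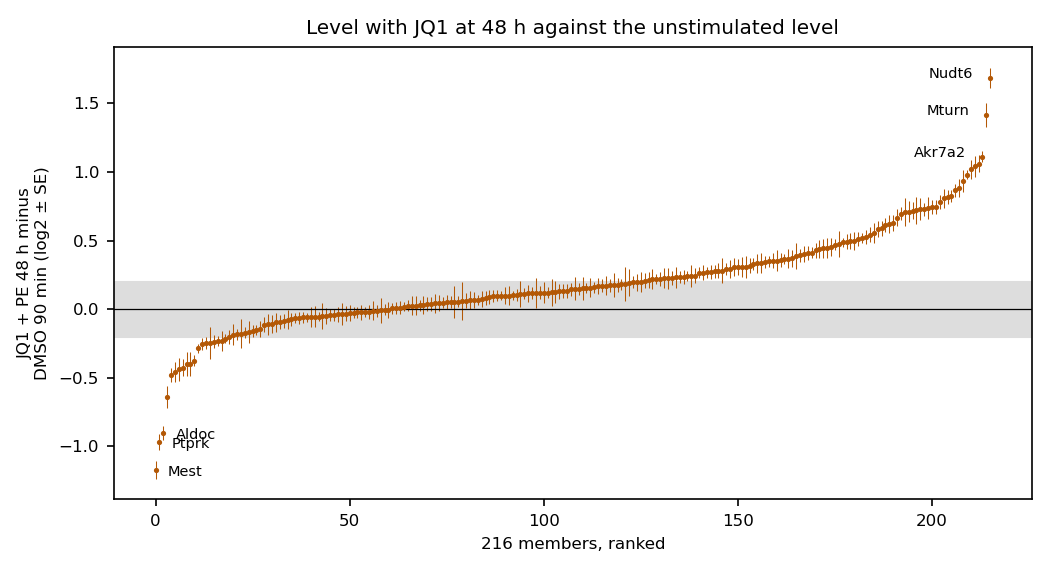
Points are the 216 members ranked by JQ1 with PE at 48 h minus DMSO at 90 min (log2), and bars are 1 SE of the fit. The grey band marks differences within 0.2 of 0, which hold 107 members. Mest, Ptprk and Aldoc lie lowest, and Nudt6, Mturn and Akr7a2 highest.

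Upstream sequence was read to describe what the members share beyond the values that chose them. RefSeq windows of the GRCr8 assembly, from 250 bases before to 50 bases after the first listed start of a gene, were matched by symbol for 184 of 216 members. Both strands were searched for 21 motifs. They were the forkhead core TGTTTAC, the E-box CACGTG with its longer forms TCACGTGA and GTCACGTG, the D-box TTACGTAA with the related TTGCGCAA, the CRE TGACGTCA, the AP-1 site TGACTCA, the GC box GGGCGG, the TATA box TATAAA, the CCAAT box with its longer form TGATTGGC, the KLF core CACCC, the RUNX site AAACCACA, the TEAD core CATTCC, the GATA core AGATAA, the shorter NRF1 letters TGCGCA, the letters CACGAG, and the full NRF1, ZBTB33 and NRF2 motifs. GTCACGTG and TCACGTGA contain CACGTG, so these counts overlap. TGTTTAC, a core of the type that forkhead proteins such as FOXO bind, was in 15 members (8.15%), in 1.72% of the other lowered genes, in 2.42% of all measured genes and in 3.76% of all 27457 windows. CACGTG, the E-box that TFEB and other basic helix-loop-helix proteins bind, was in 27 members (14.7%), against 9.31% of the other lowered genes, 8.99% of measured genes and 6.65% of all windows. Its longer form GTCACGTG was in 14 members (7.61%), against 3.43% of measured genes and 2.02% of all windows. GGGCGG was in 72.3% of members, 58.2% of measured genes and 34.9% of all windows, and the GC share of the windows was 61.9% in members, 59.9% in measured genes and 53.1% in all. TATAAA was in 4.89% of members and 8.35% of measured genes, and TGACTCA in 1.63% and 3.8%. Several motifs were about as frequent in members as in measured genes: CCAAT (39.1% and 37.4%), CACCC (64.1% and 62.8%), CATTCC (13% and 11.6%), CACGAG (7.61% and 8.16%), TGATTGGC (4.35% and 4.43%) and TGACGTCA (2.72% and 2.92%). TGCGCA was in 16.8% and 12.1%, AGATAA in 5.98% and 7.03%, AAACCACA in 3.26% and 1.22%, TCACGTGA in 4.35% and 1.46% and TTACGTAA in 1.09% and 0.156%. TTGCGCAA was in 0 members and 0.257% of measured genes. The 10-letter NRF1, ZBTB33 and NRF2 motifs were in 1.09%, 1.09% and 0% of members, against 1.7%, 0.854% and 0.0826% of measured genes. These counts were made with the members known and were not tested, and a match is a stretch of letters, not a bound site. The 250 bases before the start of 4 members are shown with the motif in capitals (on either strand): CACGTG lies 101 bases before the start of Klf15 and 198 before that of Tef, and TGTTTAC lies 205 bases before the start of Trim63 and, as its reverse complement, 167 before that of Hbp1.
Klf15, chr4:124522765-124523014, plus strand: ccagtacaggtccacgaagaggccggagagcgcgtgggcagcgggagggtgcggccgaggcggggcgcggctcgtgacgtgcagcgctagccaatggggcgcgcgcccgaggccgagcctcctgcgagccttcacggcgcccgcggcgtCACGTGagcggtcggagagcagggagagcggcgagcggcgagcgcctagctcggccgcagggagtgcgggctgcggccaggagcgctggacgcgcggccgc
Tef, chr7:115206577-115206826, plus strand: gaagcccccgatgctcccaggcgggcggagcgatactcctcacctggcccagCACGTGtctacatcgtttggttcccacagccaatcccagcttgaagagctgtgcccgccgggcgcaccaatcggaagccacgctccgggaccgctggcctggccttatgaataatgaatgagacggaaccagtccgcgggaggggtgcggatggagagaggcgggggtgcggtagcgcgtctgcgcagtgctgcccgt
Trim63, chr5:151816986-151817235, plus strand: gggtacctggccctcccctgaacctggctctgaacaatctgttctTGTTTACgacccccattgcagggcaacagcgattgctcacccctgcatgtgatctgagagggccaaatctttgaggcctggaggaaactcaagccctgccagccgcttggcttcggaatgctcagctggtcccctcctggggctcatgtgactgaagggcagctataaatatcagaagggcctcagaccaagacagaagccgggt
Hbp1, chr6:54283260-54283509, minus strand: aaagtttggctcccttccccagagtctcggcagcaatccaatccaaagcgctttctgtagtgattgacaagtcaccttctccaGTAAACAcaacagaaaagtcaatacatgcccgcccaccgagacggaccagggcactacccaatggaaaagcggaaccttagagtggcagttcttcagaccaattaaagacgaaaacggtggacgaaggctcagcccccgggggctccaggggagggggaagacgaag

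Brakes on growth and the cell cycle made up 14 members, a group assigned after the members were known. At 6 h of PE, 12 of them had fallen and 2 (Plagl1 and Sesn2) had risen. Of all 216 members 83.8% had fallen and 3.24% had risen, and of all genes 18.9% had fallen. The counts by role, here and below, are therefore not read as a trait of a role. Sesn1, a sestrin that restrains mTORC1, had log2 expression of 9.11, 9.18 and 9.22 in JQ1 with PE at 48 h, 7.62, 7.48 and 7.47 in DMSO with PE at 48 h, and 8.41, 8.51 and 8.45 in DMSO at 90 min. No arrays of these 3 groups overlapped, and the JQ1 arrays lay highest. Its JQ1 difference was 1.64 (SE 0.075), a 3.12-fold higher signal. At 6 h it already stood at 7.27 and 7.62 in DMSO with PE, a fall of 2.01-fold (log2 change -1.01, SE 0.084, limma adjusted p = 1.49e-06), against 8.37, 8.34 and 8.31 in JQ1 with PE. Ccng2, an atypical cyclin that FOXO factors switch on and that promotes cell cycle exit, showed the same shape. It had 9.96 to 10.06 in JQ1 with PE at 48 h, 8.60, 8.63 and 8.53 in DMSO with PE at 48 h, and 9.29, 9.35 and 9.20 in DMSO at 90 min. Its fall at 6 h of PE was 2.19-fold (log2 change -1.13, SE 0.054, limma adjusted p = 1.23e-08) and larger than the -0.69 at 48 h.

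Cdkn1c, the imprinted cyclin-dependent kinase inhibitor p57, had fallen at 6 h of PE by 0.40 on the log2 scale (SE 0.047, limma adjusted p = 2.76e-05) and lay lower still at 48 h. It had 10.89, 10.91 and 10.98 in JQ1 with PE at 48 h, 9.59, 9.53 and 9.63 in DMSO with PE at 48 h, and 10.93, 10.99 and 10.98 in DMSO at 90 min. The JQ1 arrays overlapped the unstimulated ones, and the JQ1 difference of 1.34 (SE 0.042) equalled 97.0% of the PE difference of -1.38 (SE 0.042). At 6 h it had 10.53, 10.46 and 10.47 in JQ1 with PE and 10.52 and 10.61 in DMSO with PE, which overlapped. Klf11, a transcription factor induced by TGF-beta, fell at 6 h of PE by 1.22 on the log2 scale (SE 0.082, limma adjusted p = 2.13e-07) and by less at 48 h (-0.59). Its other probe set was dimmer, with a highest group mean of 6.84. That probe set had PE differences of -0.23 at 6 h and -0.05 at 48 h, and a JQ1 difference of -0.10 at 48 h. Hbp1, a repressor that holds back the cell cycle, had a change of -0.89 at 6 h (limma adjusted p = 1.68e-08) and -0.88 at 48 h, with a JQ1 difference of -0.03 at 6 h and 0.65 at 48 h. Mxd4, a partner of MAX that opposes Myc, Pdcd4, an inhibitor of translation initiation, and Ypel3, linked to growth suppression in human cells, had fallen at 6 h by 0.59, 0.66 and 0.68 on the log2 scale (limma adjusted p = 1.7e-05, 3.78e-05 and 8.06e-07). Foxo1 itself was a member, with 7.37, 7.14 and 7.19 in JQ1 with PE at 48 h, 6.79, 6.74 and 6.90 in DMSO with PE at 48 h and 7.28, 7.32 and 7.33 in DMSO at 90 min. Its JQ1 difference of 0.42 (SE 0.070) was near the threshold of the rule, and its fall at 6 h of PE was 0.45 on the log2 scale (SE 0.078, limma adjusted p = 0.000661). The other Foxo1 probe set was dim, with a highest group mean of 5.85. That probe set had PE differences of -0.03 at 6 h and -0.01 at 48 h, and a JQ1 difference of 0.07 at 48 h.

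Txnip, which binds thioredoxin and restrains glucose uptake, had 13.45, 13.46 and 13.47 in JQ1 with PE at 48 h, 12.11, 11.96 and 11.97 in DMSO with PE at 48 h, and 12.69, 12.59 and 12.65 in DMSO at 90 min. The JQ1 arrays were highest, as they were at 6 h, where it had 12.97, 13.03 and 12.99 in JQ1 with PE against 11.70 and 11.87 in DMSO with PE. Plagl1, an imprinted zinc finger factor of growth arrest, ran the other way early. It had 10.95 and 11.17 in DMSO with PE at 6 h, against 10.77, 10.78 and 10.66 in DMSO at 90 min, a rise of 0.33 (SE 0.073, limma adjusted p = 0.00351) that missed the threshold without the second DMSO with PE 6 h array (0.22, adjusted p = 0.0568). At 48 h it stood at 10.21, 10.30 and 10.42 in JQ1 with PE and 9.41, 9.31 and 9.32 in DMSO with PE, both below DMSO at 90 min. Sesn2, the sestrin known to respond to stress, was at 9.80 and 9.93 in DMSO with PE at 6 h, above 9.75, 9.59 and 9.71 in DMSO at 90 min (0.18, SE 0.062, limma adjusted p = 0.0407). That call was lost without the second DMSO with PE 6 h array (adjusted p = 0.288) and without the second DMSO 90 min array or the third (adjusted p = 0.141 and 0.0581).

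**Figure D5:**
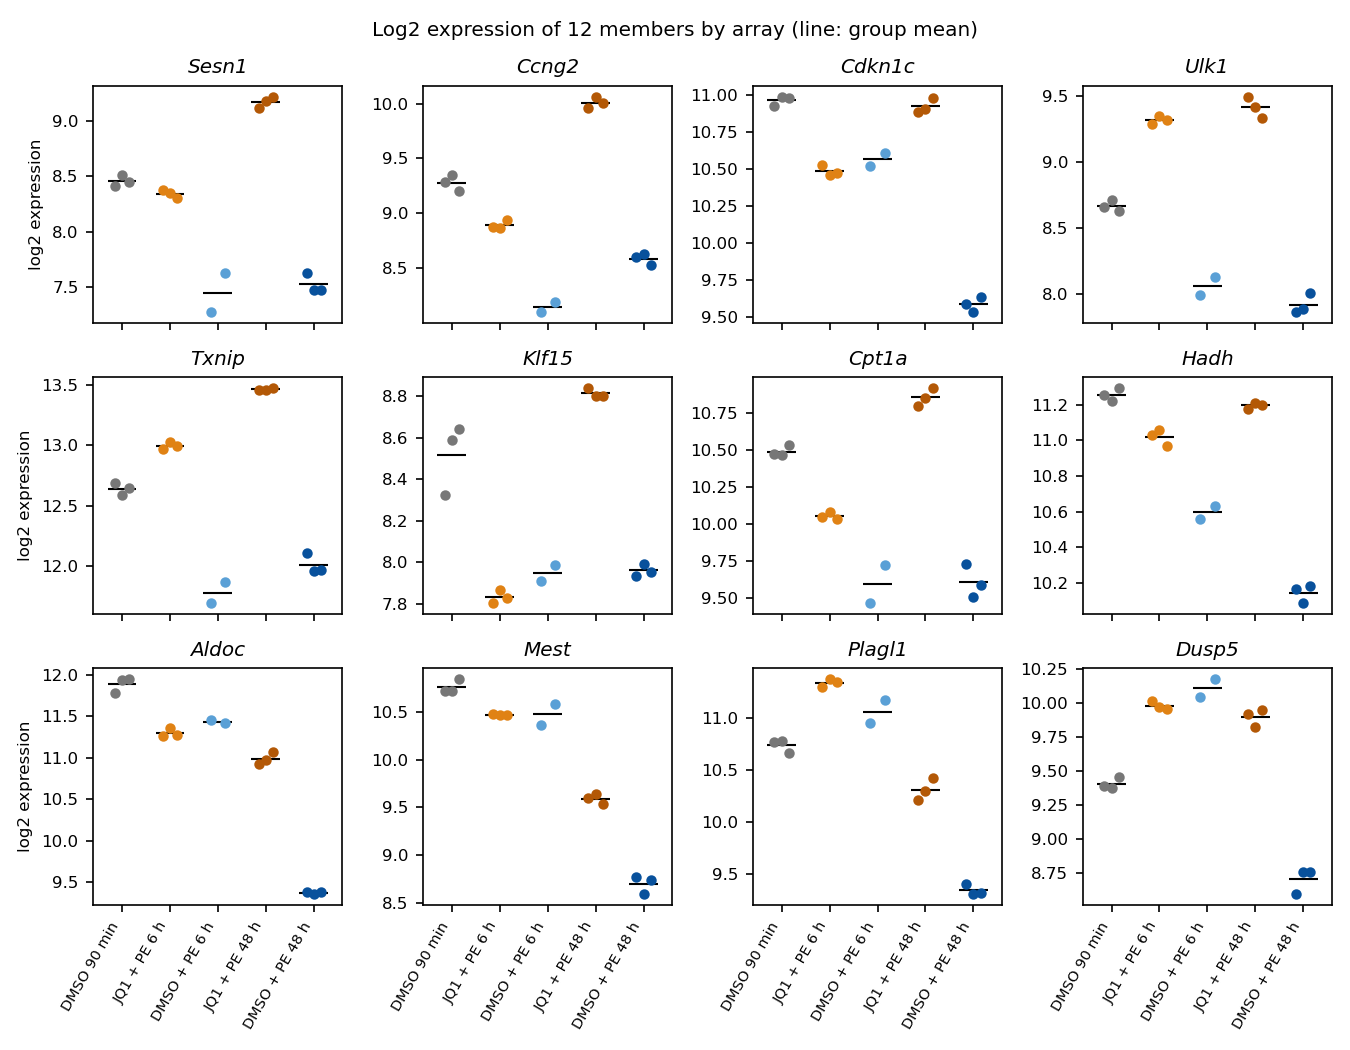
Each dot is the log2 expression on 1 array and each line the mean of its group, for 12 members with their own y axes, which do not start at 0. In each panel the DMSO with PE 48 h dots lie below both the JQ1 with PE 48 h and the DMSO 90 min dots. The DMSO with PE 6 h dots of Plagl1 and Dusp5 lie above DMSO at 90 min, and those of the other 10 lie below it.

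Genes of autophagy, lysosome and endosome made up 16 members. At 6 h of PE, 14 of them had fallen (83.8% of all members had) and 2 were not called. Ulk1, the kinase that starts autophagy, had 9.49, 9.42 and 9.33 in JQ1 with PE at 48 h, 7.87, 7.89 and 8.01 in DMSO with PE at 48 h, and 8.66, 8.72 and 8.63 in DMSO at 90 min. The groups did not overlap and the JQ1 difference was 1.50 (SE 0.054), or 2.82-fold. It was nearly as large at 6 h (1.25, SE 0.060), and the PE change at 6 h was -0.61 (SE 0.060, limma adjusted p = 7.03e-06). Atg13, its partner, had 9.94, 9.93 and 9.93 in JQ1 with PE at 48 h, 9.43, 9.45 and 9.46 in DMSO with PE at 48 h, and 9.90, 9.92 and 9.94 in DMSO at 90 min, and its PE change at 6 h was -0.10 (limma adjusted p = 0.149). Without the second DMSO with PE 6 h array this became -0.20 with an adjusted p of 0.00378. Calcoco1, an autophagy receptor, and Flcn, folliculin, which acts on mTORC1 and TFEB, had fallen at 6 h by 0.84 and 0.63 on the log2 scale (limma adjusted p = 1.96e-06 and 2.93e-07). With JQ1 at 48 h, Pink1, the kinase that marks damaged mitochondria for removal, lay between DMSO with PE and DMSO at 90 min. In JQ1 with PE it had a mean of 9.894 at 6 h and 9.723 at 48 h. It had 9.66, 9.78 and 9.73 in JQ1 with PE at 48 h, 8.74, 8.81 and 8.91 in DMSO with PE at 48 h, and 10.23, 10.12 and 10.26 in DMSO at 90 min. The JQ1 difference (0.90, SE 0.052) was 65.3% of the PE difference (-1.38, SE 0.052), and the 3 groups did not overlap.

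The 7 members that are ubiquitin ligase genes included Trim63, the muscle ligase MuRF1 that marks sarcomere proteins for breakdown. It had 10.31, 10.42 and 10.39 in JQ1 with PE at 48 h, 9.93, 9.93 and 9.89 in DMSO with PE at 48 h, and 10.46, 10.41 and 10.44 in DMSO at 90 min, and its fall at 6 h of PE was 0.40 on the log2 scale (SE 0.040, limma adjusted p = 7.01e-06). Fbxo31, an F-box protein of a cullin ligase, had 9.16, 9.11 and 9.08 in JQ1 with PE at 48 h, 8.05, 7.96 and 7.96 in DMSO with PE at 48 h and 8.47, 8.32 and 8.40 in DMSO at 90 min. Its PE change at 6 h was -0.03 (limma adjusted p = 0.821), while the JQ1 difference at 6 h was already 0.92 (SE 0.071). The list of FOXO targets, atrophy and autophagy genes held 35 measured genes, and 7 of them were members (Ccng2, Fbxo31, Klf15, Sesn1, Trim63, Txnip and Ulk1). With PE, 15 of the 35 were lower and 6 higher at 6 h, against 18.9% and 18.3% of all genes. At 48 h of PE, 21 were lower and 3 higher, against 22.6% and 21.4% of all genes. With JQ1, 19 were higher and 5 lower at 6 h, against 25.5% and 28.8% of all genes. At 48 h with JQ1, 27 were higher and 4 lower, against 30.0% and 29.6% of all genes. The list's median JQ1 difference at 48 h was 0.46, against 0.02 over all genes. The rule set the 7 members as lower with PE and higher with JQ1 at 48 h. Part of both counts at 48 h, and of this median, was thus fixed by the selection. The list of cell cycle brakes and growth arrest, which shares genes with it, held 30 measured genes. Of these, 16 were lower and 8 higher with PE at 48 h, and 17 were higher and 12 lower with JQ1 at 48 h. These counts include 5 members (Ccng2, Cdkn1c, Klf11, Mxd4 and Sesn1), whose directions at 48 h were set by the rule. Nothing is therefore read from the counts at 48 h. Both lists were chosen with earlier results of these data known.

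Fuel and intermediary metabolism was the role of 24 members. At 6 h of PE, 23 of them had fallen (83.8% of all members had) and 1 was not called. Cpt1a, which carries out the committed step of fatty acid entry into mitochondria, had 10.80, 10.85 and 10.92 in JQ1 with PE at 48 h, 9.73, 9.51 and 9.59 in DMSO with PE at 48 h, and 10.47, 10.47 and 10.53 in DMSO at 90 min. The JQ1 arrays were highest, with a JQ1 difference of 1.25 (SE 0.067), or 2.38-fold. The PE change was -0.90 at 6 h (SE 0.075, limma adjusted p = 1.54e-06) and -0.88 at 48 h (SE 0.067). Hadh, a dehydrogenase of beta-oxidation, had 11.17, 11.21 and 11.20 in JQ1 with PE at 48 h, 10.16, 10.09 and 10.19 in DMSO with PE at 48 h, and 11.25, 11.22 and 11.29 in DMSO at 90 min. With JQ1 it lay just under the unstimulated arrays, and the JQ1 difference equalled 94.6% of the PE difference at 48 h in size. Its fall at 6 h of PE was 0.66 on the log2 scale (SE 0.045, limma adjusted p = 2.24e-07). Eci1, an isomerase of beta-oxidation, had fallen by 0.33 at 6 h (limma adjusted p = 0.00012). Its JQ1 difference at 48 h equalled 73.4% of its PE difference in size. The whole list of fatty acid oxidation held 30 measured genes, of which 26 fell at 6 h of PE and 4 were not called. Among all genes 18.9% fell at 6 h. At 48 h, 20 of the list were lower and 2 higher with PE, against 22.6% and 21.4% of all genes. With JQ1, 14 were higher and 6 lower at 48 h, against 30.0% and 29.6%. With JQ1 at 6 h, 7 were higher and 13 lower, against 25.5% and 28.8% of all genes. The 3 genes named here were the members on this list, and the rule set their directions at 48 h.

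Klf15, a transcription factor that opposes hypertrophy and drives lipid and amino acid use in heart muscle, had 8.84, 8.80 and 8.80 in JQ1 with PE at 48 h, 7.93, 7.99 and 7.96 in DMSO with PE at 48 h, and 8.33, 8.59 and 8.64 in DMSO at 90 min. At 6 h it had 7.80, 7.87 and 7.83 in JQ1 with PE and 7.91 and 7.99 in DMSO with PE, so JQ1 arrays lay below DMSO arrays at 6 h and above them at 48 h. The PE change at 6 h was -0.57 (SE 0.074, limma adjusted p = 6.14e-05). Its other 2 probe sets were dim, with highest group means of 4.78 and 4.74, and the mean of all its probe sets gave a change of -0.13 with an adjusted p of 0.128. Bckdha, a subunit of the complex that commits branched-chain amino acids to breakdown, had 8.93, 9.02 and 8.95 in JQ1 with PE at 48 h, 8.22, 8.09 and 8.18 in DMSO with PE at 48 h, and 8.98, 9.06 and 9.08 in DMSO at 90 min. Gamt, which completes creatine synthesis, had 9.05, 9.08 and 9.15 in JQ1 with PE at 48 h, 7.63, 7.31 and 7.84 in DMSO with PE at 48 h, and 9.14, 9.09 and 9.20 in DMSO at 90 min. Its fall was mostly late: the change at 6 h was -0.32 (SE 0.11, limma adjusted p = 0.0348), and leaving out any 1 of the 5 arrays compared gave adjusted p-values of 0.0502 to 0.142, with changes of -0.35 to -0.29.

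Coq8a, needed for coenzyme Q synthesis, Pygb, a glycogen phosphorylase, and Mgll, which releases fatty acids from monoacylglycerol, fell early. Their changes at 6 h of PE were -1.18, -0.91 and -1.11 (limma adjusted p = 1.78e-09, 1.6e-07 and 3.06e-06), each larger in size than at 48 h (-1.09, -0.75 and -0.69). Aldoc, an aldolase of glycolysis, had the largest PE difference at 48 h among the members. It had 10.92, 10.97 and 11.06 in JQ1 with PE at 48 h, 9.38, 9.36 and 9.38 in DMSO with PE at 48 h, and 11.78, 11.93 and 11.95 in DMSO at 90 min. The signal was 5.73-fold lower in DMSO with PE at 48 h than in DMSO at 90 min, and 1.87-fold lower in JQ1 with PE at 48 h. The JQ1 difference was 1.62 (SE 0.051) at 48 h but -0.14 (SE 0.057) at 6 h. Isyna1, which makes myo-inositol, and Pts, an enzyme of tetrahydrobiopterin synthesis, lay above the unstimulated level with JQ1 at 48 h, by 0.93 and 1.04.

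Protection from oxidants and reactive compounds was the role of 7 members. At 6 h of PE, 6 of them had fallen (83.8% of all members had) and 1 (Mt2A) had risen. Hmox1, heme oxygenase 1, had 11.37, 11.21 and 11.28 in JQ1 with PE at 48 h, 10.11, 10.05 and 10.11 in DMSO with PE at 48 h, and 11.14, 11.02 and 11.10 in DMSO at 90 min. Its JQ1 difference was 1.31 (SE 0.079) at 6 h and 1.19 (SE 0.071) at 48 h. The metallothionein Mt2A, a metal-binding protein, had 12.23, 12.02 and 12.15 in JQ1 with PE at 48 h, 10.72, 10.60 and 10.66 in DMSO with PE at 48 h, and 11.06, 11.11 and 11.17 in DMSO at 90 min. At 6 h of PE it had risen to 11.45 and 11.67 (0.45, SE 0.076, limma adjusted p = 0.000541). Metallothionein copies are near-identical, and whether this probe set tells them apart was not tested. The wider list of antioxidant and detoxification genes was split, with 21 of 46 higher and 17 lower with JQ1 at 48 h. The higher genes include the members Hmox1, Mt2A and Sesn2, whose direction at 48 h was set by the rule. The shares of all genes were 30.0% and 29.6%.

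Chromatin, transcription and RNA genes made up 20 members. At 6 h of PE, 18 of them had fallen (83.8% of all members had) and 2 were not called. Mllt3, the YEATS-domain protein AF9 that works with elongation complexes, had 10.20, 10.11 and 10.22 in JQ1 with PE at 48 h, 8.83, 8.75 and 8.72 in DMSO with PE at 48 h, and 9.77, 9.83 and 9.87 in DMSO at 90 min. Its PE change at 6 h was -1.02 (SE 0.085, limma adjusted p = 1.44e-06). H1f2, a linker histone, had 13.41, 13.37 and 13.34 in JQ1 with PE at 48 h, 12.21, 12.24 and 12.19 in DMSO with PE at 48 h, and 12.62, 12.72 and 12.56 in DMSO at 90 min. Its JQ1 difference was 1.01 (SE 0.057) at 6 h and 1.16 (SE 0.051) at 48 h. Among 12 measured genes listed as histones or as known to go up with BET inhibitors elsewhere, 10 were higher with JQ1 at 48 h and 2 lower. The 10 include the members H1f2, Mxd4 and Txnip, whose direction at 48 h was set by the rule. The shares of all genes were 30.0% and 29.6%. Cirbp, an RNA-binding protein induced by cold, had 11.11, 10.95 and 11.21 in JQ1 with PE at 48 h, 9.31, 9.38 and 9.27 in DMSO with PE at 48 h, and 10.72, 10.59 and 10.62 in DMSO at 90 min. Ogt and Oga, which add and remove O-linked N-acetylglucosamine, had both fallen at 6 h, by 0.57 and 0.39 on the log2 scale (limma adjusted p = 4.42e-05 and 0.000524). With JQ1 at 48 h they lay 0.03 and 0.07 above the unstimulated level. Nr1d2, the clock repressor REV-ERB beta, and Tef, a clock output factor, had fallen at 6 h by 0.98 and 0.68 on the log2 scale (limma adjusted p = 6.46e-06 and 3.13e-06), and their JQ1 differences at 48 h were 0.95 and 0.90. In the clock list as a whole, 6 of 19 genes were higher and 4 lower with JQ1 at 48 h, against 30.0% and 29.6% of all genes. The list was thus not set apart from all genes by its count of higher genes. That count includes Nr1d2 and Tef, whose direction at 48 h was set by the rule.

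Among 27 signalling members, 18 had fallen (83.8% of all members had), 2 (Dusp5 and Plpp3) had risen and 7 were not called at 6 h of PE. Dusp5, a phosphatase that switches off nuclear ERK, had 9.92, 9.83 and 9.95 in JQ1 with PE at 48 h, 8.59, 8.76 and 8.75 in DMSO with PE at 48 h, and 9.39, 9.38 and 9.45 in DMSO at 90 min. At 6 h it had 10.02, 9.97 and 9.96 in JQ1 with PE and 10.05 and 10.18 in DMSO with PE, and the PE change there was 0.70 (SE 0.061, limma adjusted p = 2.08e-06). It was thus high at 6 h of PE and low at 48 h, and with JQ1 it stayed above the unstimulated arrays at both times. Plpp3, which breaks down lysophosphatidic acid outside the cell, rose at 6 h by 0.62 (SE 0.087, limma adjusted p = 0.000114). At 48 h it had 10.47, 10.46 and 10.53 in JQ1 with PE and 9.70, 9.60 and 9.62 in DMSO with PE, against 10.70, 10.68 and 10.65 in DMSO at 90 min. Actr3b, an actin-related protein of the Arp2/3 type and not among the signalling genes, had the largest rise at 6 h (0.72, SE 0.11, limma adjusted p = 0.000211). Cemip2 completed the 7 that rose at 6 h, at 0.24 (SE 0.088, limma adjusted p = 0.0463), and its 2 DMSO with PE 6 h arrays, 8.02 and 8.40, overlapped 8.06, 7.93 and 7.92 in DMSO at 90 min. That call was lost without the second DMSO with PE 6 h array (0.05, adjusted p = 0.59) and without the second DMSO 90 min array or the third (adjusted p = 0.115 and 0.119).

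Flrt3, a membrane protein of cell adhesion and guidance, had 8.06, 8.15 and 8.16 in JQ1 with PE at 48 h, 6.30, 6.23 and 6.02 in DMSO with PE at 48 h, and 7.62, 7.68 and 7.65 in DMSO at 90 min. Its JQ1 difference of 1.94 (SE 0.095) was 3.84-fold. Fzd1, a Wnt receptor, and Dkk3, a secreted protein of the Dickkopf family, had JQ1 differences below 0 at 6 h (-0.15 and -0.21) and above 0 at 48 h (0.41 and 0.86). Ptprk, a receptor tyrosine phosphatase, had 8.63, 8.57 and 8.69 in JQ1 with PE at 48 h, 8.07, 8.07 and 8.01 in DMSO with PE at 48 h, and 9.58, 9.57 and 9.64 in DMSO at 90 min. Its JQ1 difference at 48 h equalled only 37.5% of its PE difference of -1.55 in size. Gab1, a docking protein of receptor tyrosine kinases, had fallen at 6 h by 0.65 on the log2 scale (SE 0.036, limma adjusted p = 4.39e-08).

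Of 8 developmental transcription factors, 5 had fallen at 6 h of PE (83.8% of all members had) and 3 were not called. Gata6, a cardiac GATA factor, had 9.60, 9.60 and 9.72 in JQ1 with PE at 48 h, 8.73, 8.73 and 8.78 in DMSO with PE at 48 h, and 9.49, 9.35 and 9.38 in DMSO at 90 min, while its PE change at 6 h was 0.02 (limma adjusted p = 0.84). Zfpm2, the GATA cofactor FOG2, had its larger change at 6 h (-0.73, SE 0.075, limma adjusted p = 9.53e-06, against -0.41 at 48 h). Meis1, a homeobox factor that in mouse restrains cardiomyocyte division, had 10.52, 10.52 and 10.50 in JQ1 with PE at 48 h, 10.02, 9.98 and 9.90 in DMSO with PE at 48 h, and 10.59, 10.50 and 10.57 in DMSO at 90 min. In the list of cardiac transcription factors, 11 of 25 were lower and 7 higher with PE at 48 h, against 22.6% and 21.4% of all genes. With JQ1 at 48 h, 11 were higher and 8 lower, against 30.0% and 29.6% of all genes. Gata6, Meis1 and Zfpm2 were the members on this list, and their directions at 48 h were set by the rule. Nothing is therefore read from the counts at 48 h.

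Mest, an imprinted gene of the hydrolase family, had 9.60, 9.64 and 9.53 in JQ1 with PE at 48 h, 8.77, 8.59 and 8.74 in DMSO with PE at 48 h, and 10.72, 10.72 and 10.85 in DMSO at 90 min. The PE difference was -2.06 (SE 0.063), or 4.17-fold, and the JQ1 difference of 0.89 (SE 0.063) made up 43.2% of it, so JQ1 arrays stayed well below the unstimulated ones. At 6 h its change was -0.29 (SE 0.071, limma adjusted p = 0.00645), which became -0.18 (adjusted p = 0.107) without the first DMSO with PE 6 h array. Nnat, another imprinted gene, lay above the unstimulated level with JQ1 at 48 h. It had 8.71, 8.51 and 8.67 in JQ1 with PE at 48 h, 6.98, 6.94 and 6.83 in DMSO with PE at 48 h, and 7.58, 7.56 and 7.57 in DMSO at 90 min. H19, an imprinted non-coding RNA, and Impact, an imprinted regulator of translation, lay 0.11 below and 0.18 above the unstimulated level with JQ1 at 48 h.

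Nudt6, a Nudix hydrolase gene that overlaps Fgf2 on the opposite strand, had the largest JQ1 difference of all members. It had 9.08, 9.10 and 9.15 in JQ1 with PE at 48 h, 6.76, 6.58 and 6.63 in DMSO with PE at 48 h, and 7.54, 7.40 and 7.33 in DMSO at 90 min. The signal in JQ1 with PE at 48 h was 5.48-fold that in DMSO with PE and 3.22-fold that in unstimulated cells, and at 6 h it was 3.85-fold that in DMSO with PE. Its PE change at 6 h was -0.92 (SE 0.082, limma adjusted p = 2.8e-06). Mturn and Akr7a2, an aldehyde reductase, were the next highest above the unstimulated level at 48 h, by 1.41 and 1.11. Kcnj12, an inward rectifier potassium channel, had 7.40, 7.19 and 7.40 in JQ1 with PE at 48 h, 6.59, 6.67 and 6.61 in DMSO with PE at 48 h, and 6.96, 7.23 and 7.21 in DMSO at 90 min, and its change at 6 h of PE was -0.81 (SE 0.11, limma adjusted p = 8.02e-05). Bbs2 and Bbs4, subunits of the BBSome that serves the cilium, and Ift46, of the transport machinery inside it, had all fallen at 6 h, by 0.58, 0.53 and 0.50 on the log2 scale (limma adjusted p = 0.00112, 9.14e-05 and 2.76e-05). The 80 members without a role assigned here included 68 that had fallen (83.8% of all members had) and 2 that had risen at 6 h of PE. Their median JQ1 difference at 48 h was 0.69.

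No member was in a list of cell type markers. Cardiomyocyte markers (11 measured, such as Myh6 and Tnnt2) had a summed linear signal of 146454 to 150677 in JQ1 with PE at 48 h, 161130 to 163300 in DMSO with PE at 48 h and 149308 to 151998 in DMSO at 90 min. Of the 11, limma called 6 lower and 3 higher with JQ1 at 48 h, against 29.6% and 30.0% of all genes. Fibroblast markers were present too, and all 17 were lower with JQ1 at 48 h (median -1.06). Their summed signal was 27876 to 29055 in JQ1 with PE at 48 h, 51426 to 52319 in DMSO with PE at 48 h and 61151 to 62239 in DMSO at 90 min. Smooth muscle and pericyte markers had 11 of 14 lower and 1 higher with JQ1 at 48 h, with sums of 20828 to 21739 against 24209 to 24827 in DMSO with PE. Endothelial markers (8 of 13 lower, 1 higher) had sums of 1123 to 1144 against 1508 to 1616, and macrophage and leukocyte markers (5 of 16 lower, 1 higher) of 1204 to 1297 against 1700 to 1798. The macrophage and leukocyte count was near the share of all genes called lower. Epicardial markers had sums of 1278 to 1370 against 2031 to 2233, Schwann and neuronal markers of 382 to 405 against 629 to 668, and erythroid markers of 286 to 323 against 284 to 321. Array signals have no 0, so no marker can be said to be absent. In such bulk samples, fewer cells of a type and less RNA per cell cannot be told apart, and the part of these shifts in the members' values was not tested.

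Other probe sets of the same genes were read as a further description. Of the 216 members, 98 had 148 other probe sets, of which 111 lay below 0 for PE at 48 h and above 0 for JQ1 at 48 h. Among the 66 whose highest group mean was at least 7, 63 had both signs, and in 34 both differences were at least 0.4 in size. Of the other 3, 2 were above 0 with PE and 1 was below 0 with JQ1.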

How the data were processed

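Biotin-labelled copies of total RNA were hybridised to Affymetrix rat arrays, per the labels' protocols. The authors deposited 1 table of log2 expression values for 20223 probe sets on 14 arrays. Array medians lay between 7.28 and 7.43. How probe sets were summarised and normalised is not given in the sources used here. Limma appears in the submitters' processing notes with no stated role. Of the probe sets 18510 had a single symbol, 305 had several, 1402 had none and 6 were controls. Symbols were updated through rat RefSeq genes (GRCr8): 18461 probe sets matched by gene identifier and 1 by accession, and 48 kept the platform's symbol. The brightest probe set per gene left 13184 genes.

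In R 4.3.3, limma 3.58.1 (lmFit, eBayes) fitted a mean per group on all arrays (9 residual degrees of freedom), with two-sided p-values adjusted over all genes by Benjamini-Hochberg and a threshold of 0.05. Array number limits the precision. Errors are SEs of this fit. Contrasts used by the selection carry no p-value for members.

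Members, roles and gene lists were chosen with earlier results of these data known. Named members were those with the most extreme PE, JQ1 and net differences, those nearest the thresholds and those in the gene lists (64 genes), and 29 more were named after their values were seen, for their roles or their sign at 6 h. The alternatives were the mean of probe sets, quantile normalization, centring on the median, a filter on dim genes, an intensity trend, fitting only the arrays of both groups, a replicate block, other thresholds and leaving out each array.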

Additional observations from a re-analysis of the deposited data

Results flagged for a closer look

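In 9 of the 216 members every DMSO with PE array lay above every DMSO 90 min array at 6 h and below every one at 48 h. This is 4.17% of members, against 3.73% of the 509 other genes lowered with PE and 2.61% of all genes. Of the 9, Cd24, Ets2 and Sema6a did not pass the test at 6 h (limma adjusted p = 0.36, 0.0714 and 0.598). The PE difference at 48 h minus that at 6 h (log2) was, by gene, Actr3b (-1.16), Cd24 (-0.65), Dusp5 (-1.41), Ets2 (-0.81), Mt2A (-0.9), Plagl1 (-1.72), Plpp3 (-1.66), Sema6a (-0.57) and Sesn2 (-0.62). This reversal was not tested.

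In 33 members every JQ1 with PE array lay below both DMSO with PE arrays at 6 h and above all of them at 48 h. This is 15.3% of members, against 17.3% of the 509 other genes lowered with PE and 4.56% of all genes. The JQ1 difference at 48 h minus that at 6 h ran from 0.56 to 1.75 over these 33. For the members named in the text or by the naming rule it was, by gene, Aldoc (1.75), Ap3m1 (0.72), Coq8a (0.91), Dkk3 (1.06), Dusp5 (1.33), Fitm2 (0.71), Fzd1 (0.56), Gab1 (0.85), Gpm6a (0.84), Klf15 (0.97), Nme3 (1.38), Rilpl1 (0.6), Snx33 (0.57) and Ypel3 (1.28). This difference was not tested either. The lower bound at 6 h and the JQ1 difference at 48 h were both part of the selection.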

How the results depend on the processing

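With thresholds of 0.3 the selection found 445 genes, and with 0.5 it found 121. Other settings gave 177 (mean of probe sets, 165 shared), 252 (quantile normalization, 213 shared) and 258 (arrays centred on the median, 216 shared), and leaving out single arrays gave 207 to 246. Members lowered at 6 h of PE numbered 165 to 186 under the other settings, among them 175 with a replicate block (6 raised), and 155 to 183 without single arrays. Members raised at 6 h numbered 5 to 8 under the other settings and 4 to 9 without single arrays (4 without the second and 9 without the first DMSO with PE 6 h array). Members at least as high in JQ1 with PE at 48 h as in DMSO at 90 min numbered 161 with the mean of probe sets, 168 after quantile normalization, 187 after centring and 152 to 158 without single arrays. Replicate numbers do not pair the arrays: deviations from group means correlated at -0.267 to 0.18 over 26 pairs of the same number and at -0.207 to 0.267 over 52 pairs of different numbers. Of 93 named members, 82 passed the test at 6 h of PE. Of these, 19 lost the call under at least 1 alternative, 6 others gained it, and none changed sign while called. The causes were not tested. Dim probe sets and the 2 DMSO with PE 6 h arrays limit the 6 h values.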
